A study of Homo sapiens with 38 samples.

Results

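The mRNAs of 10 genes that make or restrain blood clotting were followed on 38 arrays of the human lung cell line A549. The genes were the clotting factors F2 (prothrombin), F3 (tissue factor), F5, F7 and F10, and the natural anticoagulants PROC (protein C), PROS1 (protein S), THBD (thrombomodulin), TFPI and TFPI2. They were 10 of the 19720 gene symbols found for the probes of the array, and 13 probes belonged to their transcripts. They were selected on readouts of these same arrays: the study had named F2, F7, F10, PROC, PROS1, TFPI and THBD from the comparisons of 3.0 and 6.0 μg/cm2 with unexposed cells, and F3, F5 and TFPI2 were added with earlier results of these data known. The comparisons of those doses with unexposed cells are therefore given as a description, with differences and standard errors (SE) but no p-value.

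A549 is a single established line, grown from a lung adenocarcinoma and used as a model of the alveolar epithelium. It was exposed to fumed silica nanoparticles (NPs), and RNA of each culture was hybridised on a 1-colour Agilent array. Every culture was kept in medium without serum, the unexposed control cells included. The arrays fell into 3 sets that were run apart, each with its own unexposed cells. The first set held 4 arrays each of unexposed cells, 0.1 and 1.0 μg/cm2, and the second held 4 arrays each of unexposed cells and 1.5 μg/cm2, all at 24 h. In the third set, 3 arrays each covered unexposed cells, 3.0 and 6.0 μg/cm2, at 24 h and again at 72 h. The labels number the arrays of a group as biological replicates and the protocol speaks of 3 cultures, so some of 4 arrays may share a culture, and p-values measure the spread between arrays only.

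Clotting starts when F7 in plasma meets tissue factor on a cell surface, which leads to the activation of F10, and F10 with its cofactor F5 turns prothrombin into thrombin, the enzyme that makes fibrin. F2, F7, F10, PROC and PROS1 need vitamin K for their modification and are made mainly by the liver, while tissue factor is a membrane receptor of many cells outside the blood. Thrombin bound to thrombomodulin activates protein C, which with protein S inactivates F5 and F8. TFPI blocks tissue factor with F7 and F10, and TFPI2 is a related inhibitor of plasmin and other proteases that lies in the matrix.

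A level here is the log2 of the processed signal of a probe minus the log2 of the 75th percentile of that array, so 0 is a probe as bright as that percentile. Levels of different probes were not compared with each other. The same probe also differed between the unexposed cells of the 3 sets at 24 h, by 0.22 (F7) to 1.65 (THBD) on the log2 scale, so each group was read only against its own set. A probe is called well above background where the scanner software said so. The arrays' 75th percentile lay between 546 and 2264 signal units, and 54.4% to 73.5% of all probes were well above background. Of 17 markers of airway and alveolar epithelium, 11 were well above background on all 38 arrays, among them EPCAM, KRT18 and SFTPC, whereas the lung factor NKX2-1 was so on 1 array and the surfactant gene SFTPB on 2. Of 9 endothelial markers, 5 (TEK, KDR, ERG, CLDN5 and EMCN) were above background on no array. The others were so on 37 arrays (CDH5), 27 (VWF), 3 (PECAM1) and 1 (TIE1).

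Of the members, 7 genes were well above background on all 38 arrays, F7 on 37 and F10 on 32. F5, the cofactor of F10, was so on only 3 arrays, 1 each of unexposed cells, 0.1 and 1.0 μg/cm2 in the first set. It entered no comparison, which leaves 9 genes tested in each comparison and 8 in that of 6.0 with 3.0 μg/cm2 at 72 h, where F10 also failed the filter.

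At 3.0 and 6.0 μg/cm2 the members moved in both directions. A gene was called where its adjusted p from limma was below 0.05 and its level differed 1.5-fold or more, and each gene was represented by its brightest probe. At 3.0 μg/cm2 and 24 h, 2 of 9 were called (F7 and PROC, both lower), against 2.92% of all probes tested, of which 1.45% higher and 1.47% lower. At 6.0 μg/cm2 and 24 h, 8 of 9 were called, against 9.31% (4.14% higher, 5.17% lower): TFPI, TFPI2 and THBD were higher, and F2, F7, F10, PROC and PROS1 lower. At 3.0 μg/cm2 and 72 h, 4 of 9 were called, against 5.88% (2.23% higher, 3.64% lower): TFPI2 higher, and F7, PROC and PROS1 lower. At 6.0 μg/cm2 and 72 h, 6 of 9 were called, against 17.3% (7.05% higher, 10.2% lower): TFPI2 higher, and F2, F7, PROC, PROS1 and TFPI lower. Arrays of exposed and unexposed cells did not overlap for 8 and 9 of 9 members at 3.0 and 6.0 μg/cm2 at 24 h and for 7 and 7 at 72 h, against 35.4%, 49.9%, 48.3% and 58.4% of all probes. These counts rest on the comparisons the genes were chosen from, and nothing is read from them. The exposed arrays at 72 h were all scanned on a later scan day than their unexposed cells and lay on other slides. Scan day, slide and exposure cannot be told apart there. At 24 h exposed and unexposed arrays shared slides and were scanned on 1 day. The 3.0 and 6.0 μg/cm2 groups of one time share their unexposed arrays. In a whole culture, fewer cells of a kind and less RNA per cell cannot be told apart.

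**Figure D1:**
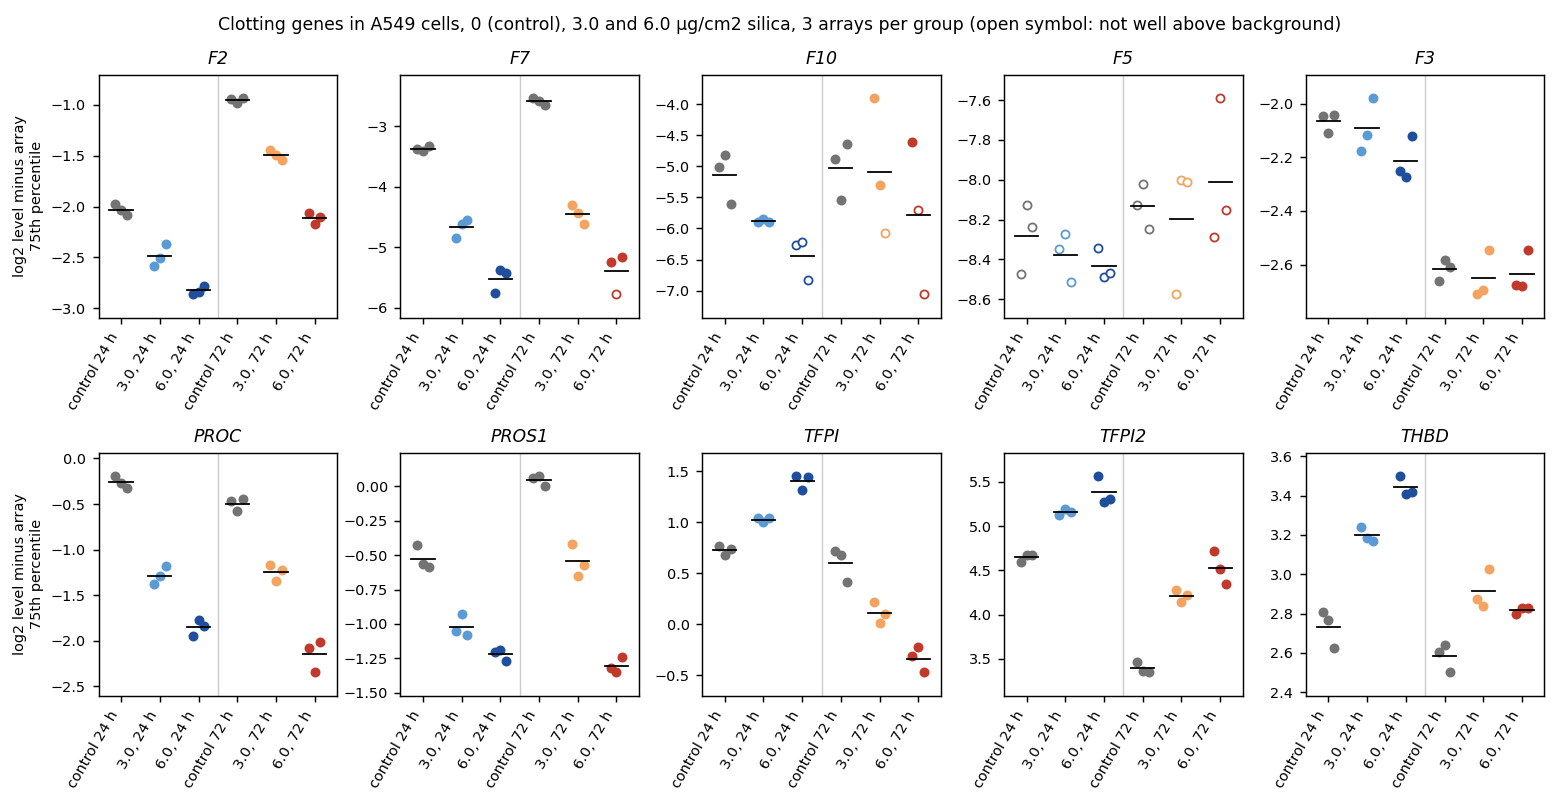
Level of each member on the arrays of unexposed cells, 3.0 and 6.0 μg/cm2 at 24 h and 72 h, as log2 of the signal relative to the 75th percentile of the array. Points are arrays, 3 a group, lines are group means, and open points are not well above background. F7, F2, PROC and PROS1 step down with dose at both times, TFPI2 steps up, and TFPI lies above its unexposed cells at 24 h and below them at 72 h.

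The promoters of the 6 genes called at 6.0 μg/cm2 at both times are shown because 4 of them were lower and 1 higher at both times, and TFPI changed sides. A window was found for 9 of the 10 members in the RefSeq promoter table (GRCh38.p14), and THBD had no match. Each line gives 250 bases before the transcription start and the first 10 after it, 5′ to 3′ on the strand of the gene. For PROC, which has 2 windows, the first is shown. Capitals mark matches to motifs that were searched on both strands: CAAAG (a core bound by HNF4), TGACTCA (AP-1), GGGACTTTC (NF-kB) and GGGCGG (Sp1). No match overlapped another.
F2 (chr11:46718963-46719222, plus strand): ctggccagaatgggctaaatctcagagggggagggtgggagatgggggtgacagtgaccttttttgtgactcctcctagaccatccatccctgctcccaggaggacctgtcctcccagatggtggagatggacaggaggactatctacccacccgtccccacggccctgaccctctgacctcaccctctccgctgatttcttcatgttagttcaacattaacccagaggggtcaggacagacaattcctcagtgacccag
F7 (chr13:113105541-113105800, plus strand): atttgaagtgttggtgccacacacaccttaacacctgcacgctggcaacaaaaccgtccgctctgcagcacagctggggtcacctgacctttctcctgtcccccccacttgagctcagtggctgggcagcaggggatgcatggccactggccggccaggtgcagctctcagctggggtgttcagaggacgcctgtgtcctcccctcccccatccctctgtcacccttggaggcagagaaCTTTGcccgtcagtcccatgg
PROC (chr2:127418177-127418436, plus strand): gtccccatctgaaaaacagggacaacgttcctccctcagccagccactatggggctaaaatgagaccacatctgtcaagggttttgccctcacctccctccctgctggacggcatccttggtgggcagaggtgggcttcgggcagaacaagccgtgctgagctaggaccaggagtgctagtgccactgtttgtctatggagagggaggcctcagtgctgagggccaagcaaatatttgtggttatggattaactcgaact
PROS1 (chr3:93973887-93974146, minus strand): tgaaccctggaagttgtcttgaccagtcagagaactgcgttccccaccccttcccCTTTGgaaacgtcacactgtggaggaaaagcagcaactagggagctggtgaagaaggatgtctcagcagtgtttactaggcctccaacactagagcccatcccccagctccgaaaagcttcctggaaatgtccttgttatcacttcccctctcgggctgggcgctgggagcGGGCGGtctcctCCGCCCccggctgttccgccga
TFPI (chr2:187554426-187554685, minus strand): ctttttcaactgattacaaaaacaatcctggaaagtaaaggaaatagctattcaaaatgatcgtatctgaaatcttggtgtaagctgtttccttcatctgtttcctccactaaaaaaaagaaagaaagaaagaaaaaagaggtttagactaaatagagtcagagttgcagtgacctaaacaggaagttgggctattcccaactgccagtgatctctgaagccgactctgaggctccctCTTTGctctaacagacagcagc
TFPI2 (chr7:93890744-93891003, minus strand): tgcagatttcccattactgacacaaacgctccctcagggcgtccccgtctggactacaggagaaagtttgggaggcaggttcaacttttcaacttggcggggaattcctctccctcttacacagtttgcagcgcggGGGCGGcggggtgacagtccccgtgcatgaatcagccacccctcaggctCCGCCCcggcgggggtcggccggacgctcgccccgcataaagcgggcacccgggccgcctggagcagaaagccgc

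Over the 300-base windows of these 6 genes, 7 in number, CAAAG was found in 3 (F7, PROS1 and TFPI), where 47.5% of all 35116 promoters hold it. In F7 and TFPI it stood close to the start, at −11 to −7 and −12 to −8. GGGCGG was found in PROS1 and TFPI2, against 45.0%. TGACTCA and GGGACTTTC, held by 4.95% and 0.387% of all promoters, were in none of the 7. The windows of F2 and PROC held no match to these motifs. A further planned motif, GTTAAT (a core bound by HNF1), was not searched. Its reverse complement, attaac, stands in the printed windows of F2 and PROC, and its share over all promoters was not counted. A match describes letters in a window and shows no bound factor.

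F7, the protease that starts the cascade with tissue factor, was lower at 3.0 and 6.0 μg/cm2 at both times. Its levels at 24 h were −3.38, −3.40 and −3.34 in unexposed cells, −4.85, −4.61 and −4.55 at 3.0 μg/cm2 and −5.76, −5.38 and −5.43 at 6.0 μg/cm2. At 72 h they were −2.54, −2.59 and −2.65, then −4.30, −4.44 and −4.61, then −5.24, −5.77 and −5.16. No array of a dose overlapped the dose below it at either time. The 2 groups at 3.0 μg/cm2 overlapped each other across time, as did those at 6.0 μg/cm2, while the unexposed arrays stood higher at 72 h than at 24 h. The differences from unexposed cells were −1.30 ± 0.09 and −2.15 ± 0.11 (log2, SE) at 24 h, and −1.86 ± 0.09 and −2.80 ± 0.16 at 72 h, the last a 6.95-fold lower level. One array at 6.0 μg/cm2 and 72 h (replicate 2) was not well above background. With normexp background correction, which changes dim probes most, the differences were −0.54 and −0.50 at 3.0 and 6.0 μg/cm2 at 24 h, and −0.97 and −1.29 at 72 h. F7 then missed the call at both doses at 24 h, and PROC lay farther below its unexposed cells than F7 in 3 of the 4 comparisons.

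F2, which encodes prothrombin, lay at −1.97, −2.04 and −2.08 in unexposed cells at 24 h, at −2.59, −2.51 and −2.37 at 3.0 μg/cm2 and at −2.86, −2.84 and −2.78 at 6.0 μg/cm2. At 72 h it lay at −0.94, −0.98 and −0.93, then −1.45, −1.50 and −1.54, then −2.06, −2.17 and −2.10. The order was the same at both times, without overlap, and the arrays at 6.0 μg/cm2 and 72 h overlapped the unexposed arrays of 24 h. The differences were −0.45 ± 0.07 and −0.79 ± 0.06 at 24 h and −0.54 ± 0.05 and −1.16 ± 0.06 at 72 h, that is 2.23-fold lower at the higher dose and later time. With normexp the difference at 6.0 μg/cm2 and 24 h was −0.41, and the call was lost.

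F10, the next protease of the cascade, was dim and scattered. Its levels at 24 h were −5.02, −4.82 and −5.60 in unexposed cells, −5.90, −5.85 and −5.89 at 3.0 μg/cm2 and −6.26, −6.22 and −6.83 at 6.0 μg/cm2, where no array was well above background. Only a bound on the processed signal can be given there: at least 2.22-fold lower than unexposed cells, measured means being −5.15 and −6.44. With normexp the sign of this difference turned, to 0.14, and the call was lost. At 72 h the unexposed arrays read −4.89, −5.54 and −4.64, but 3.0 μg/cm2 ran from −6.08 to −3.90 and 6.0 μg/cm2 from −7.06 to −4.62, with 2 and 1 arrays above background. Both overlapped the unexposed arrays, with differences of −0.07 ± 0.57 and −0.77 ± 0.59.

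F3, the tissue factor that F7 binds, stayed close to its unexposed level. It read −2.05, −2.11 and −2.04 in unexposed cells at 24 h and −2.25, −2.27 and −2.12 at 6.0 μg/cm2, then −2.66, −2.58 and −2.61 and −2.68, −2.68 and −2.54 at 72 h. The groups did not overlap at 24 h, with a difference of −0.15 ± 0.06, and overlapped at 72 h, with −0.02 ± 0.07. At 3.0 μg/cm2 the differences were −0.02 ± 0.07 and −0.03 ± 0.06, with overlap at both times.

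PROC, the zymogen of the protease that inactivates F5 and F8, was lower at 3.0 and 6.0 μg/cm2 at both times. Its brighter probe read −0.20, −0.27 and −0.32 in unexposed cells at 24 h, −1.38, −1.29 and −1.18 at 3.0 μg/cm2 and −1.95, −1.78 and −1.83 at 6.0 μg/cm2. At 72 h it read −0.47, −0.57 and −0.45, then −1.17, −1.35 and −1.22, then −2.08, −2.35 and −2.02. No exposed array reached an unexposed one, and the doses did not overlap at either time. The differences were −1.02 ± 0.07 and −1.59 ± 0.07 at 24 h and −0.75 ± 0.07 and −1.65 ± 0.10 at 72 h. The second probe gave −0.99 ± 0.08, −1.55 ± 0.06, −0.71 ± 0.06 and −1.57 ± 0.06 in the same order.

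PROS1, the cofactor of activated protein C, was lower in these 4 groups too. Its brighter probe read −0.43, −0.56 and −0.58 in unexposed cells at 24 h, −1.05, −0.93 and −1.08 at 3.0 μg/cm2 and −1.20, −1.19 and −1.27 at 6.0 μg/cm2. At 72 h the readings were 0.06, 0.07 and 0.00, then −0.42, −0.65 and −0.57, then −1.32, −1.35 and −1.24. No dose overlapped the next one. The arrays at 6.0 μg/cm2 overlapped across the 2 times, whereas the unexposed arrays stood higher at 72 h. The differences were −0.50 ± 0.07 and −0.70 ± 0.06 at 24 h and −0.59 ± 0.07 and −1.35 ± 0.06 at 72 h. The second probe gave −0.26 ± 0.06 and −0.47 ± 0.08 at 24 h and −0.56 ± 0.08 and −1.35 ± 0.08 at 72 h. It was called at 6.0 μg/cm2 and 72 h alone, whereas the brighter probe was also called at 6.0 μg/cm2 and 24 h and, at 1.51-fold, at 3.0 μg/cm2 and 72 h.

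THBD, the thrombin receptor that starts the protein C pathway, went the other way. It read 2.81, 2.77 and 2.63 in unexposed cells at 24 h, 3.24, 3.19 and 3.17 at 3.0 μg/cm2 and 3.50, 3.41 and 3.42 at 6.0 μg/cm2. At 72 h it read 2.60, 2.64 and 2.50, then 2.87, 2.84 and 3.03, then 2.80, 2.83 and 2.83. Every exposed array was above every unexposed one of its time, and the order of the doses differed: at 24 h all 3 arrays at 6.0 μg/cm2 lay above those at 3.0 μg/cm2, and at 72 h just below them. The differences were 0.47 ± 0.06 and 0.71 ± 0.07 at 24 h and 0.33 ± 0.07 and 0.24 ± 0.06 at 72 h.

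TFPI2, the Kunitz inhibitor of plasmin and trypsin, was higher at 3.0 and 6.0 μg/cm2 at both times. It read 4.60, 4.67 and 4.67 in unexposed cells at 24 h, 5.13, 5.19 and 5.16 at 3.0 μg/cm2 and 5.56, 5.28 and 5.30 at 6.0 μg/cm2. At 72 h it read 3.46, 3.36 and 3.35, then 4.28, 4.14 and 4.22, then 4.72, 4.51 and 4.34. The 3 groups of each time did not overlap, and the arrays at 6.0 μg/cm2 and 72 h overlapped the unexposed arrays of 24 h. The differences were 0.52 ± 0.05 and 0.73 ± 0.09 at 24 h and 0.82 ± 0.06 and 1.14 ± 0.11 at 72 h, 2.20-fold higher at the last.

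**Figure D2:**
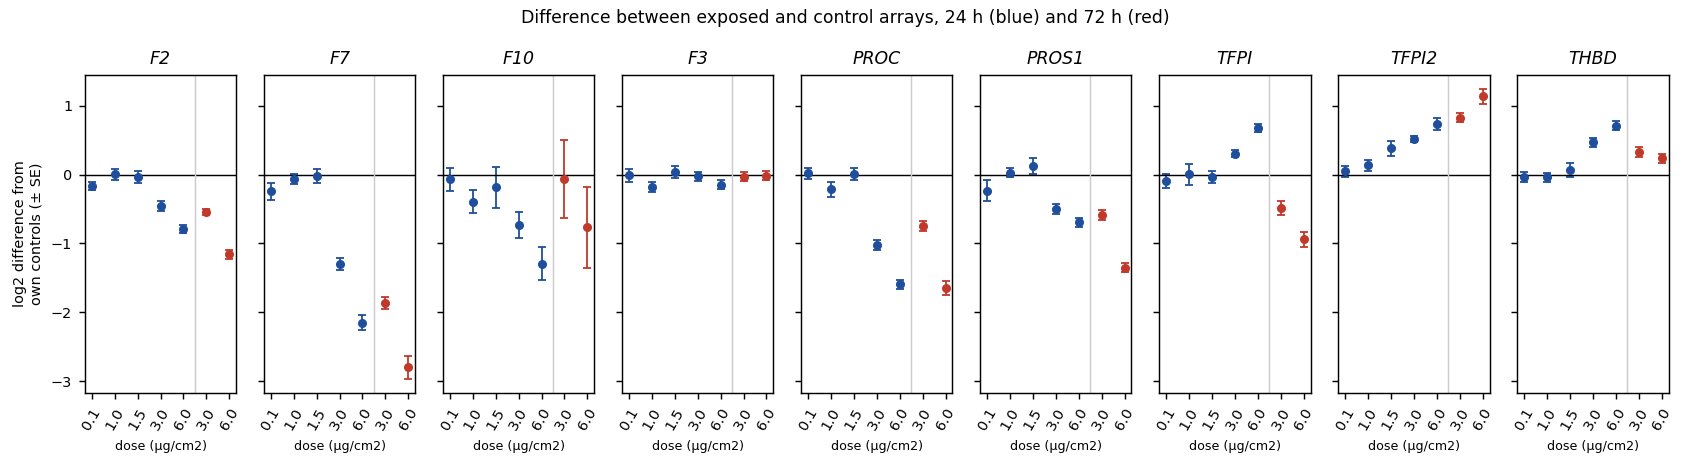
Difference of each member from the unexposed cells of its time (log2, exposed minus unexposed), in blue for 0.1 to 6.0 μg/cm2 at 24 h and in red for 3.0 and 6.0 μg/cm2 at 72 h. Points are differences from limma and bars are SE, with 4 arrays a group up to 1.5 μg/cm2 and 3 above. F7 reaches −2.80 and TFPI2 1.14 at 6.0 μg/cm2 and 72 h, and TFPI lies at 0.68 at 6.0 μg/cm2 and 24 h and at −0.94 at 72 h.

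TFPI, the Kunitz inhibitor of tissue factor with F7 and F10, was the member whose difference turned with time. The brighter probe read 0.77, 0.68 and 0.74 in unexposed cells at 24 h, 1.04, 1.00 and 1.04 at 3.0 μg/cm2 and 1.45, 1.31 and 1.45 at 6.0 μg/cm2. At 72 h the unexposed arrays read 0.72, 0.68 and 0.41, those at 3.0 μg/cm2 0.22, 0.01 and 0.10, and those at 6.0 μg/cm2 −0.31, −0.23 and −0.47. All exposed arrays were thus above unexposed cells at 24 h and below them at 72 h, and the higher dose was farther from them each time. The differences were 0.30 ± 0.05 and 0.68 ± 0.06 at 24 h and −0.49 ± 0.10 and −0.94 ± 0.11 at 72 h. The second probe gave 0.37 ± 0.10 and 0.77 ± 0.10, then −0.34 ± 0.05 and −0.84 ± 0.06. Under every one of the 16 alternative settings run for each of these comparisons, TFPI kept its sign.

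**Figure D3:**
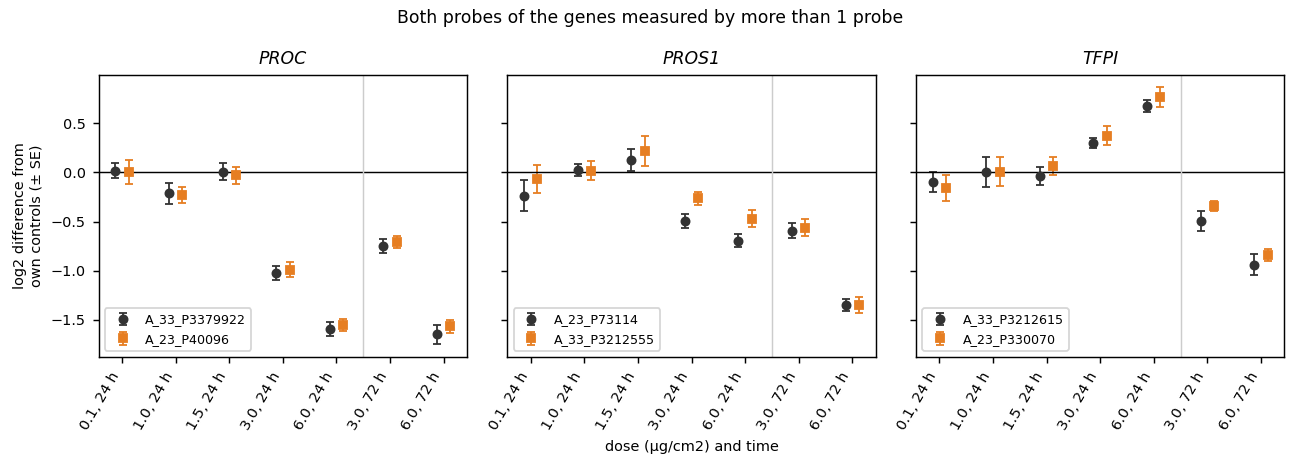
Differences from unexposed cells (log2, exposed minus unexposed) by the probe that represents a gene and by its second probe, for PROC, PROS1 and TFPI at each dose and time. Points are differences and bars SE, with 4 arrays a group up to 1.5 μg/cm2 and 3 above. At 3.0 and 6.0 μg/cm2 both probes of TFPI lie above 0 at 24 h and below 0 at 72 h, and the largest gap between probes is that of PROS1 at 24 h.

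The change of TFPI with time was tested as the 72 h difference minus the 24 h difference. It came to −0.79 ± 0.12 at 3.0 μg/cm2 (limma, adjusted p = 0.00266) and −1.62 ± 0.13 at 6.0 μg/cm2 (adjusted p = 1.53e-05). The second probe gave −0.72 ± 0.12 (adjusted p = 0.00406) and −1.61 ± 0.12 (adjusted p = 1.01e-05). TFPI was the only member of 9 called at 3.0 μg/cm2, where 5.27% of all probes were called (2.90% lower at 72 h), and 1 of 3 at 6.0 μg/cm2, where 17.3% were called (9.09% lower). These tests and those that follow reuse arrays of the comparisons the genes were named from, so they are no independent support for them. The scan day and the slides of the exposed arrays at 72 h move with the term.

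The other calls for time at 6.0 μg/cm2 were PROS1 and F7, both lower against unexposed cells at 72 h than at 24 h. PROS1 gave −0.66 ± 0.08 (limma, adjusted p = 0.000219), and its second probe −0.88 ± 0.12 (adjusted p = 0.000366). F7 gave −0.65 ± 0.21 (adjusted p = 0.0332), and this call was lost without any 1 of 7 arrays by the adjusted p, which was 0.0531 to 0.0758, and without replicate 2 of 6.0 μg/cm2 at 72 h by the fold, at −0.46. The F7 call was also lost with normexp (limma, adjusted p = 0.0787) and with no filter on dim probes (adjusted p = 0.0677). F2, at −0.37 ± 0.07 (adjusted p = 0.00321), THBD, at −0.47 ± 0.09 (adjusted p = 0.00194), and TFPI2, at 0.40 ± 0.14 (adjusted p = 0.0477), passed the p threshold but not the fold. For PROC the term was −0.06 ± 0.12 (95% interval −0.33 to 0.22, adjusted p = 0.742).

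Whether the members moved on between 3.0 and 6.0 μg/cm2 was tested between the exposed groups, which were scanned on the same day at each time. At 24 h, 1 of 9 was called, against 1.60% of all probes (0.849% lower): F7, at −0.85 ± 0.13 (limma, adjusted p = 0.0141). That call was lost without replicate 2 (adjusted p = 0.0607) or replicate 3 (adjusted p = 0.0514) of 3.0 μg/cm2, and with normexp the difference was 0.030 (adjusted p = 0.96). F2, PROC, TFPI and THBD passed the p threshold below the fold of 1.5. PROC was lower by a log2 difference of −0.57 ± 0.07 (adjusted p = 0.0105), and TFPI was higher by 0.38 ± 0.06 (adjusted p = 0.0152). For TFPI2 the 95% interval was 0.02 to 0.42 (adjusted p = 0.159). The doses did not overlap for 8 of 9 members, against 32.3% of all probes.

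At 72 h the levels of F2, F7, PROC and PROS1 differed between the doses. Of 8 tested, 4 were called, all lower, against 4.83% of all probes (3.71% lower), and 7 did not overlap, against 39.7%. PROC differed by −0.90 ± 0.10 (limma, adjusted p = 0.00507), PROS1 by −0.76 ± 0.08 (adjusted p = 0.0038), F2 by −0.62 ± 0.06 (adjusted p = 0.00335) and F7 by −0.94 ± 0.18 (adjusted p = 0.0209). The F7 call was lost without any single array of 3.0 μg/cm2 (adjusted p 0.0557 to 0.0768), with no filter on dim probes (adjusted p = 0.0752) and with the t-test of the methods (adjusted p = 0.0713). With normexp and in the deposited series values, F2 (−0.47 and −0.51) and F7 (−0.32 and −0.40) fell short of the fold. TFPI differed by −0.45 ± 0.09 (adjusted p = 0.024), under the fold threshold. THBD differed by −0.10 ± 0.07 (95% interval −0.26 to 0.07, adjusted p = 0.384) and F3 by 0.02 ± 0.07 (interval −0.16 to 0.20, adjusted p = 0.908). The same replicate numbers deviated together in these 2 dose comparisons, and a block on the number changed no member call.

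In unexposed cells, F2 and F7 rose between 24 h and 72 h and TFPI2 fell. Of 9 tested, 3 were called, against 19.8% of all probes (12.4% higher, 7.32% lower), and 6 did not overlap, against 67.4%. Both times were scanned on 1 day. F2 rose by 1.08 ± 0.06 (limma, adjusted p = 5.36e-05) and F7 by 0.78 ± 0.06 (adjusted p = 0.000151), while TFPI2 fell by 1.26 ± 0.06 on the log2 scale (adjusted p = 4.42e-05). F7 dropped under the fold threshold with normexp, at 0.52, and in the deposited series values, at 0.50. PROS1 was higher by 0.57 ± 0.06 (adjusted p = 0.000595), short of the fold, and its second probe by 0.80 ± 0.08 (adjusted p = 0.000318), past it. F3 differed by −0.55 ± 0.05 (adjusted p = 0.000399) and PROC by −0.24 ± 0.06 (adjusted p = 0.0175), both under the fold. For TFPI the interval of the difference was −0.34 to 0.09 (adjusted p = 0.271), for THBD the adjusted p was 0.112, and F10 differed by 0.12 ± 0.28 (adjusted p = 0.722).

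At 0.1, 1.0 and 1.5 μg/cm2 no member of 9 was called, against 0%, 0.00949% and 2.42% of all probes. The smallest adjusted p of a member (limma) was 0.452, 0.256 and 0.125, and 1, 2 and 1 members had an unadjusted p under 0.05. The unpaired t-test of the methods called 0 at each dose. Arrays 1 and 2, and 3 and 4, of a group deviated together in these sets (consensus correlation 0.873, 0.809 and 0.624), so the p-values are too small, and none passed.

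Groups that did not overlap were found for 1 member at 0.1 μg/cm2 and 1 at 1.5 μg/cm2, against 7.9% and 13% of all probes, and for none at 1.0 μg/cm2, against 12.9%. The second probe of PROC, which does not stand for the gene in these counts, did not overlap at 1.0 μg/cm2, at −0.23 ± 0.08 (limma, adjusted p = 0.223). F2 read −1.33, −1.36, −1.49 and −1.42 in unexposed cells and −1.57, −1.58, −1.56 and −1.55 at 0.1 μg/cm2, all 4 lower, with a difference of −0.17 ± 0.06 (95% interval −0.31 to −0.02, limma, adjusted p = 0.452). At 1.0 μg/cm2 it read −1.21, −1.38, −1.48 and −1.51, across the unexposed arrays. TFPI2 read 3.85, 4.20, 4.19 and 4.32 in unexposed cells of the second set and 4.51, 4.56, 4.42 and 4.58 at 1.5 μg/cm2, all 4 higher. Its difference was 0.38 ± 0.11 (interval 0.13 to 0.63, adjusted p = 0.125), 0.51 within one scan day and 0.25 within the other. It was the side on which TFPI2 lay at 3.0 and 6.0 μg/cm2, on other arrays, but the call was not made. F7 differed by −0.02 and PROC by 0.01 at 1.5 μg/cm2.

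**Figure D4:**
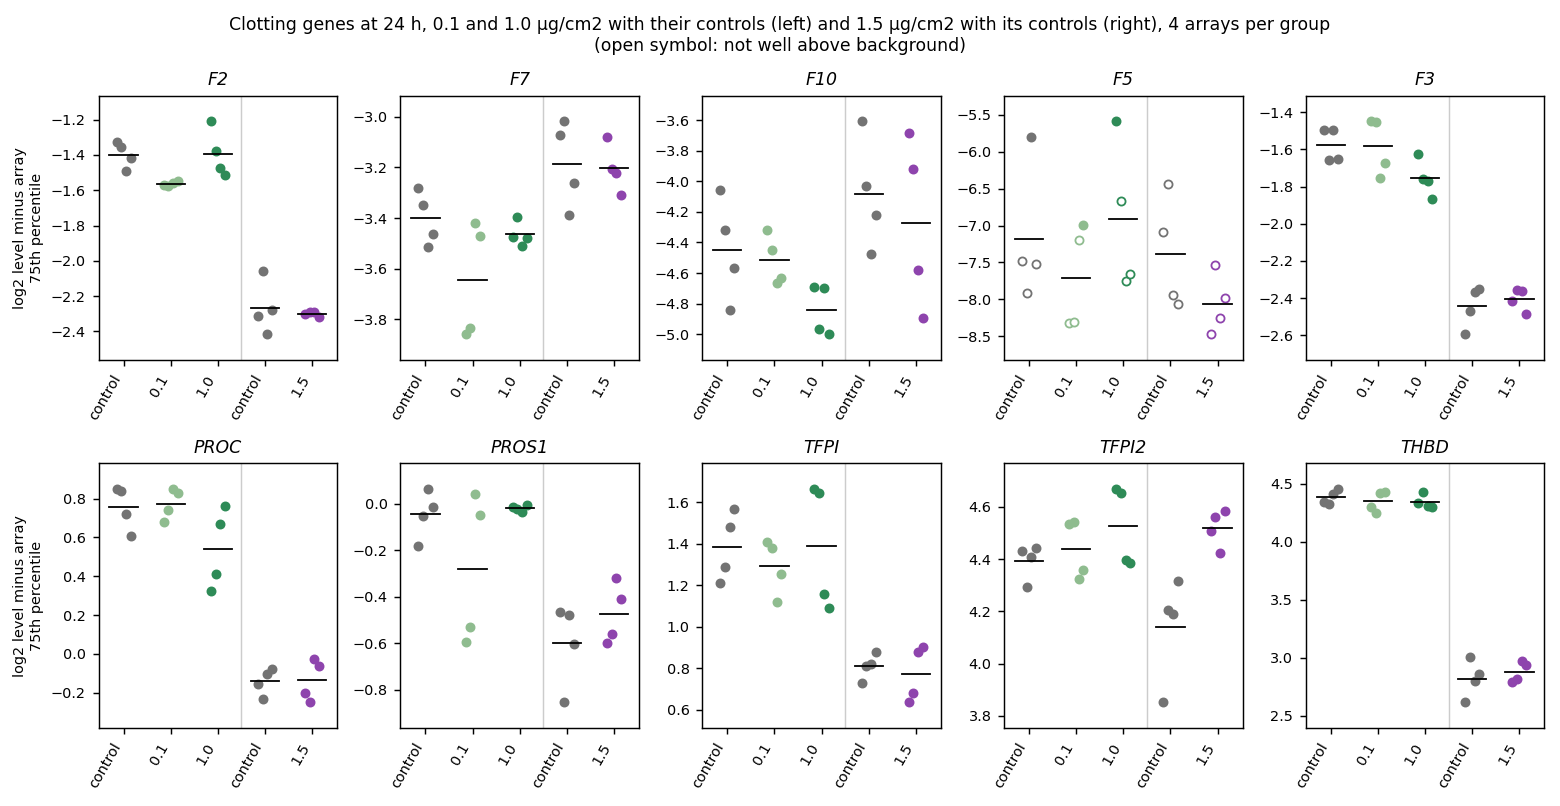
Level of each member on the arrays of the first set (unexposed, 0.1 and 1.0 μg/cm2) and the second set (unexposed and 1.5 μg/cm2), all at 24 h, as log2 of the signal relative to the 75th percentile of the array. Points are arrays, 4 a group, open where not well above background, and lines are group means. Exposed and unexposed arrays of the tested members overlap except for F2 at 0.1 μg/cm2 and TFPI2 at 1.5 μg/cm2, and the level of THBD differs between the sets.

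The other clotting genes were counted by lists chosen with earlier results of these data known, which hold genes that the study named from these arrays. Among 13 other clotting factors and fibrin genes, 6 were tested at 24 h and 10 at 72 h. Called lower at 24 h were 3 of 6 at both doses, the fibrinogen chains FGA, FGB and FGG, against 1.47% and 5.17% of all probes, and none was called higher. The median difference of these 6 was −0.34 and −0.47, where the median of all probes lay between −0.04 and 0.05 in every comparison. The 3 chains were also called lower at both doses at 72 h, FGG by −1.61 and −3.20. F13B, KLK1, KNG1 and VWF were too dim for a test at 24 h and entered at 72 h through the unexposed arrays. F13B and KLK1 were then called lower at both doses and KNG1 at 6.0 μg/cm2, against 3.64% and 10.2% of all probes called lower. Entry through the unexposed arrays favours a lower call, so nothing is read from the calls of these genes. In unexposed cells FGA, FGB and FGG rose between 24 h and 72 h, FGG by 2.52.

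Of 11 other inhibitors, 5 or 6 were tested. C4BPA, the alpha chain of the C4b-binding protein that carries protein S in plasma, was lower throughout, by a log2 difference of −0.93 and −1.42 at 24 h and −0.92 and −2.07 at 72 h. Its beta chain C4BPB, which holds protein S, was dim. At 72 h it was well above background on 0 unexposed arrays, 0 at 3.0 μg/cm2 and 3 at 6.0 μg/cm2. It thus entered only through the group at 6.0 μg/cm2, which favours a higher call, and read at least 2.57-fold higher there. At 24 h its differences were 0.53 ± 0.18 and 0.54 ± 0.19, not called. In unexposed cells it was at least 2.36-fold lower at 72 h than at 24 h. SERPINA1 was, like C4BPA, called lower at 72 h. So was SERPINA5, which was too dim for a test at 24 h and entered at 72 h through the unexposed arrays. PROCR, the receptor that presents protein C to thrombin and thrombomodulin, was called at no dose, with differences of 0.02 and 0.09 at 24 h and 0.34 ± 0.05 and 0.29 ± 0.06 at 72 h. Of the protease-activated receptors, F2RL1 was called higher in all 4 comparisons. F2R, the main receptor for thrombin, was called in none, with values of −0.03 to 0.32.

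Of 12 genes of fibrinolysis, 9 were tested. Called higher at 24 h were PLAU, PLAUR and SERPINE2 at 3.0 μg/cm2, with PLAT besides at 6.0 μg/cm2, and none was called lower. At 72 h none was called at 3.0 μg/cm2, and at 6.0 μg/cm2 PLAU, by 1.13, and SERPINE2, by 0.65, were called higher and SERPINF2 lower. PLAU is the urokinase that turns plasminogen into plasmin, and SERPINE2 inhibits thrombin and urokinase. A further list of 13 genes held the vitamin K cycle and other vitamin K dependent proteins, with FURIN, LMAN1 and MCFD2, which are neither. Of these 13, 11 were tested, and 0 and 1 were called at 24 h and 2 and 4 at 72 h. Of all probes 2.92%, 9.31%, 5.88% and 17.3% were called in the same comparisons. MCFD2 was called higher and FURIN lower at both doses at 72 h. The other calls were lower: PRRG4 at 6.0 μg/cm2 at both times, and GAS6 at 6.0 μg/cm2 and 72 h. GGCX, the carboxylase of F2, F7, F10, PROC and PROS1, differed by −0.29 ± 0.06 and −0.50 ± 0.06 at 24 h and by 0.00 and 0.02 at 72 h, and VKORC1, which recycles vitamin K, by −0.25 to −0.06.

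**Figure D5:**
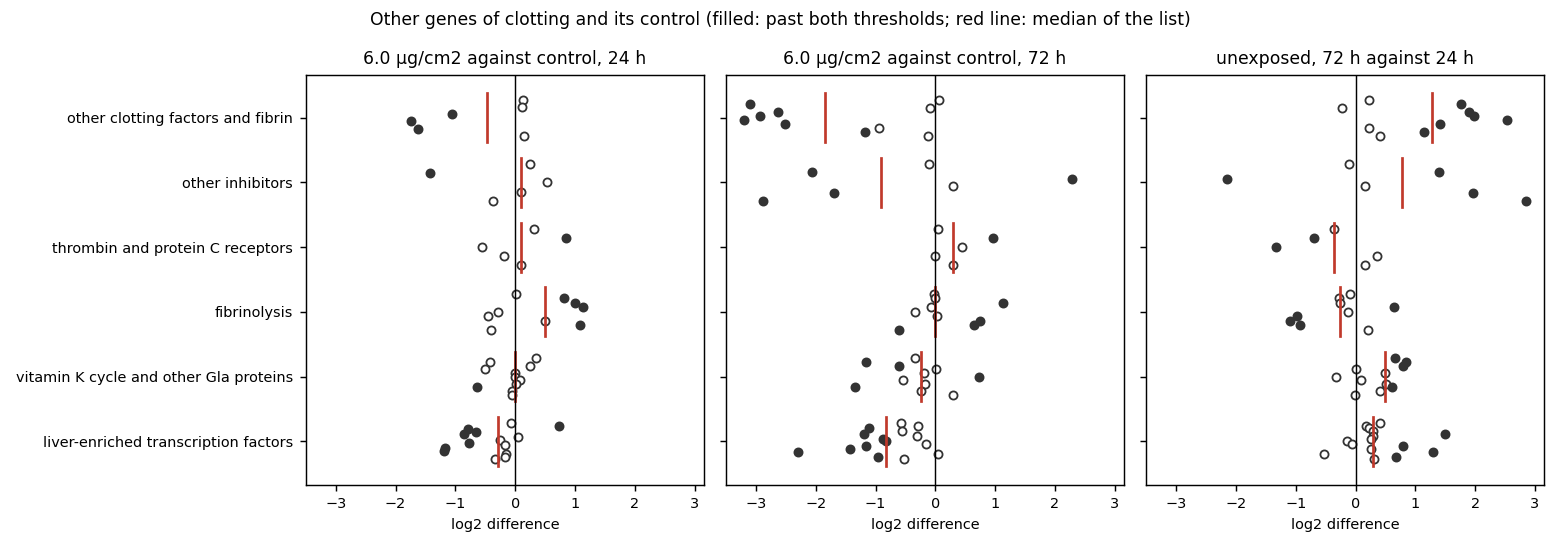
Difference of each tested gene of the lists (log2) for 6.0 μg/cm2 minus unexposed cells at 24 h and at 72 h, and for unexposed cells at 72 h minus 24 h, with 3 arrays a group. Points are genes, filled where called, and red lines are the medians of the lists. The list of other clotting factors and fibrin has a median of −0.47 and fibrinolysis one of 0.50 at 6.0 μg/cm2 and 24 h, and the panels at 72 h hold more genes of the first list.

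Liver-enriched transcription factors were also read, as a list of 16, of which 14 were tested at 24 h and 15 at 72 h. Of all probes 1.47%, 5.17%, 3.64% and 10.2% were called lower in these comparisons, and of the list 1 and 6 at 24 h and 4 and 8 at 72 h. CEBPB alone was called higher, at 6.0 μg/cm2 and 24 h. The medians were −0.29, −0.30, −0.33 and −0.82. HNF4A was too dim for a test at 24 h and entered at 72 h through the unexposed arrays, which favours a lower call. Its calls are among the 4 and 8. At 72 h it differed by −1.00 ± 0.15 and −1.16 ± 0.33, with all 3 unexposed arrays but 1 of 3 at each dose well above background. The summed signal of 10 hepatocyte markers, as a multiple of the 75th percentile of the array, ran from 1.93 to 2.31 in unexposed cells and 0.782 to 0.840 at 6.0 μg/cm2 at 24 h, and from 7.66 to 7.80 and 1.07 to 1.31 at 72 h. Without FGB, the fibrinogen chain that made up most of this sum in unexposed cells, it ran from 0.508 to 0.536 and 0.310 to 0.362 at 24 h, and from 1.49 to 1.60 and 0.303 to 0.427 at 72 h. At 24 h TTR differed by 0.51 and APOA1 by −0.30. Of these markers 3 were above background on all arrays and APOB on none, and FGB and SERPINA1 are also in the lists above. Their part in the levels of F2, F7, F10, PROC and PROS1 was not tested. The sum of the epithelial markers ran from 741 to 791 in unexposed cells and 757 to 792 at 6.0 μg/cm2 at 24 h, and from 836 to 932 and 775 to 860 at 72 h. Within that sum EPCAM differed by −0.79 at 24 h and −1.16 at 72 h, CDH1 by −1.21 and −1.41, MUC1 by 0.09 and −1.50, and KRT19 by 0.80 and −0.39.

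Over the 18 arrays of the third set, which share 6 groups, the genes whose level ran most like that of F7 among 14636 were CPN1 (Pearson r = 0.988), GPX2 (0.983) and ENTPD8 (0.980). Most like TFPI2 were SOCS2 (0.983), RELB (0.979) and CLDN1 (0.979). These values describe the pattern of group means and carry no test.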

How the data were processed

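A549 RNA was hybridised on 38 Agilent 1-colour arrays. The authors deposited scanner files made with Agilent Feature Extraction (10.10.1.1 and 11.0.1.1, in the file headers); their processed signal is a background-subtracted intensity per spot, not normalised between arrays. The deposited series table holds the median intensity without background correction, equal to the scanner value within 0.01. Other deposited columns are the scanner's calls of spots that are well above background, saturated or outliers.

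Flagged spots (0.612%) and control spots were left out, spots of a probe were averaged, and log2 levels were set to each array's 75th percentile. Probes that no array of at least 1 compared group called dim were tested with limma 3.58.1 in R 4.3.3, each comparison alone, with Benjamini-Hochberg adjustment over all probes tested. The number of arrays limits the precision. Members were matched by transcript accession, and a gene was represented by the probe with the highest mean level. All members are named, with genes acting directly on them, of which some are not reported here. The members and lists were chosen with earlier results of these data known. The steps were tested on simulated data. Alternatives covered background, normalisation, filters, test, blocks and each array left out. Same-numbered arrays deviated together in every pair in 6.0 against 3.0 μg/cm2 only (correlations of 0.293 to 0.333 at 24 h and 0.180 to 0.657 at 72 h), so the replicate block is a paired fit there. For groups dim on all arrays, a bound was computed from the processed signal. Each dim array entered at its own reading or, where higher, at the lowest signal well above background on that array. Unexposed arrays at 24 h were assigned to the doses on the same slides. Unexposed arrays at 72 h lay on the slides of the 24 h arrays of the third set. No exposed array at 72 h shared a slide with them. Exposed 72 h arrays took their time from the source name, since another label field reads 24 h.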

Additional observations from a re-analysis of the deposited data

Results flagged for a closer look

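A test of the difference between the 24 h and the 72 h effect of one dose picked out 3 members. It called 1 of 9 at 3.0 μg/cm2 and 3 of 9 at 6.0 μg/cm2, against 5.27% and 17.3% of all probes. The test reuses arrays of the comparisons the genes were named from, so it is no independent support for them. For TFPI at 3.0 μg/cm2 the 72 h difference minus the 24 h difference was −0.79 by the brighter probe and −0.72 by the second, and at 6.0 μg/cm2 it was −1.62 and −1.61 (log2). For PROS1 at 6.0 μg/cm2 it was −0.66 and −0.88, and for F7 at 6.0 μg/cm2 −0.65. All have limma adjusted p-values under the threshold, given in the report, but the F7 call was lost in several alternatives named there. The exposed arrays at 72 h were scanned on another day than the other groups and lay on other slides. Scan day, slide and exposure cannot be told apart there. Among the groups of 4 arrays no value of a member stood apart from the other 3, where chance would pick about 1 group in 20.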

How the results depend on the processing

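Counts are of member genes called, and brackets hold all probes called, of those tested. With normexp they were 1 at 3.0 μg/cm2 (229 of 22096) and 5 at 6.0 μg/cm2 (827 of 22174) at 24 h. For 6.0 against 3.0 μg/cm2 they were 0 at 24 h (15 of 22140) and 2 at 72 h (383 of 21609). With no filter on dim probes (168 of 34127) or with the t-test (163 of 22140), 6.0 against 3.0 μg/cm2 at 24 h gave 0. With the series table it gave 0 (97 of 22140), and 2 at 72 h (473 of 21609). For the 72 h minus 24 h difference at 3.0 μg/cm2, quantile normalisation (1267 of 22620) and the series table (874 of 22620) each gave 2. Without the fold threshold the counts were 7 at 3.0 μg/cm2 at both times (2693 of 22096 at 24 h and 5927 of 21957 at 72 h). In unexposed cells the count was 6 (13015 of 22133), and for 6.0 against 3.0 μg/cm2 at 24 h it was 5 (1913 of 22140). For time the counts were 3 at 3.0 μg/cm2 (4666 of 22620) and 6 at 6.0 μg/cm2 (8538 of 22605). With 1 array left out the ranges were 2 to 3 and 8 to 8 at 24 h, 3 to 5 and 6 to 7 at 72 h, 3 to 4 in unexposed cells, 0 to 2 and 3 to 4 for 6.0 against 3.0 μg/cm2, and 1 to 2 and 2 to 3 for time, and stayed 0 at 0.1, 1.0 and 1.5 μg/cm2. The replicate block changed no count: paired by number, they were 0, 0 and 0 at the low doses, 2, 8, 4 and 6 at 3.0 and 6.0 μg/cm2, 3 in unexposed cells, 1 and 4 between doses and 1 and 3 for time. The sign turned for F10 at 6.0 μg/cm2 and 24 h (0.14) and for F7 in 6.0 against 3.0 μg/cm2 at 24 h (0.030), both under normexp. Of 227 settings over the counts, 204 stayed within 1.5 times. A random slide block could not be estimated in the fits of 2 groups at 72 h, and in a fit of the whole set, chosen after seeing the data, it changed no count. The cause of these changes was not tested.

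The limits are those of 3 or 4 arrays a group, of dim probes (F5, F10, and F7 when exposed) and of scan day and slide at 72 h.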
